A study of Homo sapiens with 10 samples.

Results

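The genes described here are 5 subunits of the transcription factor NF-kB (NFKB1, NFKB2, RELA, RELB and REL), 4 proteins that restrain NF-kB signalling or are induced by it (NFKBIA, NFKBIE, TNFAIP3 and BIRC3) and the kinase TBK1. Members were chosen by gene symbol, with earlier results of these data known. Each gene is represented by its brightest probe set, judged by mean log2 signal over all arrays. A probe set was listed for 9 of the 10 genes, out of 19775 genes with one, and all 9 were bright enough to be among the 12514 genes tested. BIRC3 was not analysed here. Levels were measured on 10 Affymetrix U133 Plus 2.0 arrays of total RNA from human lung cancer cells (NSCLC) of the line A549 or the line H1650, which carries mutant EGFR. The study asked which genes depend on ID1, a dominant-negative partner of basic helix-loop-helix transcription factors. In both lines 1 array was made for unstimulated cells with control siRNA, and 1 each for control siRNA and for ID1 siRNA with nicotine and likewise with EGF, which makes 5 arrays a line. All cells were serum starved for 48 h, and stimulated cells were then treated for 18 h with nicotine at 1 µM, an agonist of nicotinic acetylcholine receptors, or with the growth factor EGF at 100 ng/ml. ID1 siRNA was not given without a stimulus. The labels do not say whether each array had a culture of its own, so p-values measure only the spread between these arrays.

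NF-kB is a family of dimeric transcription factors held in the cytoplasm of resting cells by IkB proteins. Ligands such as TNF, IL-1 or bacterial products activate the IKK complex, which marks IkB proteins for destruction, and the freed dimers enter the nucleus and bind kappaB sites in DNA. Their targets include the genes of their own inhibitors, which gives the pathway a negative feedback loop, as well as cytokines, chemokines and survival factors. RELA and the product of NFKB1 form the best known dimer of the canonical branch, whereas RELB pairs mainly with the product of NFKB2 in the non-canonical branch. TBK1 is an IKK-related kinase that phosphorylates interferon regulatory factors in innate immune signalling.

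Promoter sequence of 3 members is shown first because these genes passed the test described below for ID1 siRNA in A549 or for the difference of the ID1 siRNA effect between lines, and hold a match to the kappaB consensus. The RefSeq table of assembly GRCh38.p14 held 12 windows for 8 members, each running from 250 bases before to 50 bases after an annotated start. RELB and NFKBIE had none. The 250 bases before the start are printed 5′ to 3′ on the gene's strand, with capitals marking each match to the kappaB consensus on either strand. They lie at chr6:137867009-137867258 on the plus strand for TNFAIP3, chr14:35404750-35404999 on the minus strand for NFKBIA and chr4:102501109-102501358 on the plus strand for NFKB1.
TNFAIP3: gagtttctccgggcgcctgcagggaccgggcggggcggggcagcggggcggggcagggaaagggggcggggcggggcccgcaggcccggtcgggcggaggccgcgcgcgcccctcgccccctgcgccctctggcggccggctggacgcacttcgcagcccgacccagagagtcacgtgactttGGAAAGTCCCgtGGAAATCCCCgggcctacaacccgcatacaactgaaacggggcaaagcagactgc
NFKBIA: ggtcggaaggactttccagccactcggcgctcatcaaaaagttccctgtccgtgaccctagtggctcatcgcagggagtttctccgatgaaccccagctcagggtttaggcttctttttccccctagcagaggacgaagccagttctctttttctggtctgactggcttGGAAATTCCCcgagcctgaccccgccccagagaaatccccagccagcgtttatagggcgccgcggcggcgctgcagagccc
NFKB1: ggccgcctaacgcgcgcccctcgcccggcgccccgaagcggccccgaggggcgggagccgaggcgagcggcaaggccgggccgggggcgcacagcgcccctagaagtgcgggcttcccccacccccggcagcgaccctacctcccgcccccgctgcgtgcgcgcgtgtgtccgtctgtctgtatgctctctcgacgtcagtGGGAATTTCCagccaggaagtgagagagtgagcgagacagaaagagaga

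The TNFAIP3 window held GGAAAGTCCC starting 67 bases before the start of the gene and GGAAATCCCC starting 55 bases before it. In NFKBIA the match GGAAATTCCC started 81 bases before the start. In the printed NFKB1 window the match GGGAATTTCC started 49 bases before it, and a further NFKB1 window, not printed, held no match to the consensus. Matches to the consensus were found in 7 of the 12 windows, belonging to 6 members (NFKB1, NFKB2, REL, NFKBIA, TNFAIP3 and BIRC3), against 11.3% of all 35116 windows in the table. A looser pattern, GGG and CC with any 5 bases between them on either strand, was present in all 12 windows and in 58.7% of all windows. It contains every consensus match, so both counts overlap. The TBK1 window held 1 match to the looser pattern, starting 165 bases before the start, and none to the consensus. A match describes the letters in the window and is not a measurement of binding.

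**Figure D1:**
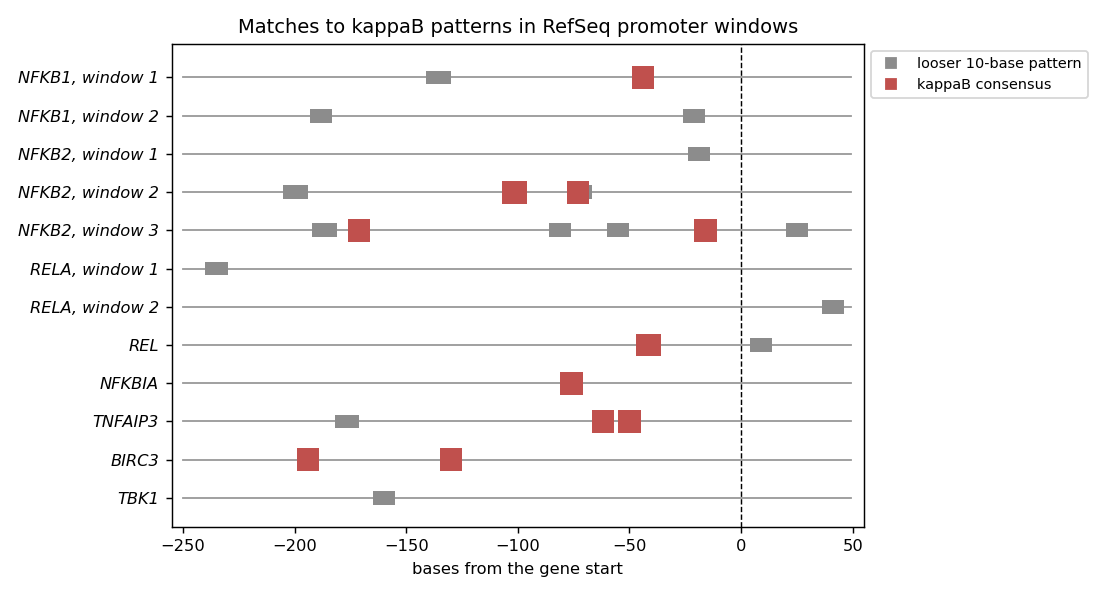
Position of matches in the promoter windows of the members, in bases from the annotated start, with the looser pattern and the kappaB consensus marked separately. The TNFAIP3 matches to the consensus lie 67 and 55 bases before the start, the NFKBIA match 81 and the first NFKB1 window's match 49.

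Signals were linear values scaled to a trimmed mean of 500 on each array, and array medians lay between 61.2 and 79.6. ID1 itself fell with its siRNA in every matched pair. In A549 its signal was 3720 with nicotine and 3049 with EGF under control siRNA, 1343 in both ID1 siRNA arrays and 1645 on the array labelled unstimulated control. In H1650 it was 4964 and 5121 under control siRNA, 881 and 1031 under ID1 siRNA and 5030 without a stimulus. The ID1 siRNA signals were thus 2.77 and 2.27 times lower than their controls in A549 and 5.63 and 4.97 times lower in H1650, while the unstimulated A549 array was 1.22 and 1.23 times above the ID1 siRNA arrays. The median over all probe sets was higher in the ID1 siRNA array by 0.27 (nicotine) and 0.31 (EGF) on the log2 scale in A549, and by 0.00 and 0.10 in H1650. Over the tested genes alone these shifts were 0.01 and 0.08 in A549 and -0.03 and 0.01 in H1650. Epithelial markers were bright in both lines, with KRT8 at 15254 or more on each array and EPCAM between 734 and 1520 in A549 and 12201 and 14055 in H1650. The blood markers PTPRC, CD3E and CD14 and the endothelial marker CDH5 were too dim to be tested, with CDH5 between 4.97 and 247. The endothelial marker PECAM1 was above the filter, with signals between 153 and 267.

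With ID1 siRNA in A549, TNFAIP3 rose 4.25-fold, RELB 1.81-fold and NFKB1 1.43-fold, and TBK1 fell 1.31-fold. In H1650, RELB fell 1.91-fold, NFKBIA 1.58-fold and TBK1 1.34-fold. The effect was higher in A549 than in H1650 for TNFAIP3, RELB and NFKBIA, and for the other 6 members no difference between lines passed the test. Each effect is the mean of the nicotine and EGF pairs of a line, in a limma model of the 8 stimulated arrays that was fitted across all tested genes, with n = 2 pairs per line. A change was called at a Benjamini-Hochberg adjusted p under 0.05, and errors are limma standard errors. This model leaves 2 residual degrees of freedom per gene and borrows the rest of its spread from genes of similar signal. The gene's own spread is the disagreement between its nicotine and EGF pairs, pooled over both lines, and not that of replicates. A gene therefore has the same standard error in both lines.

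**Figure D2:**
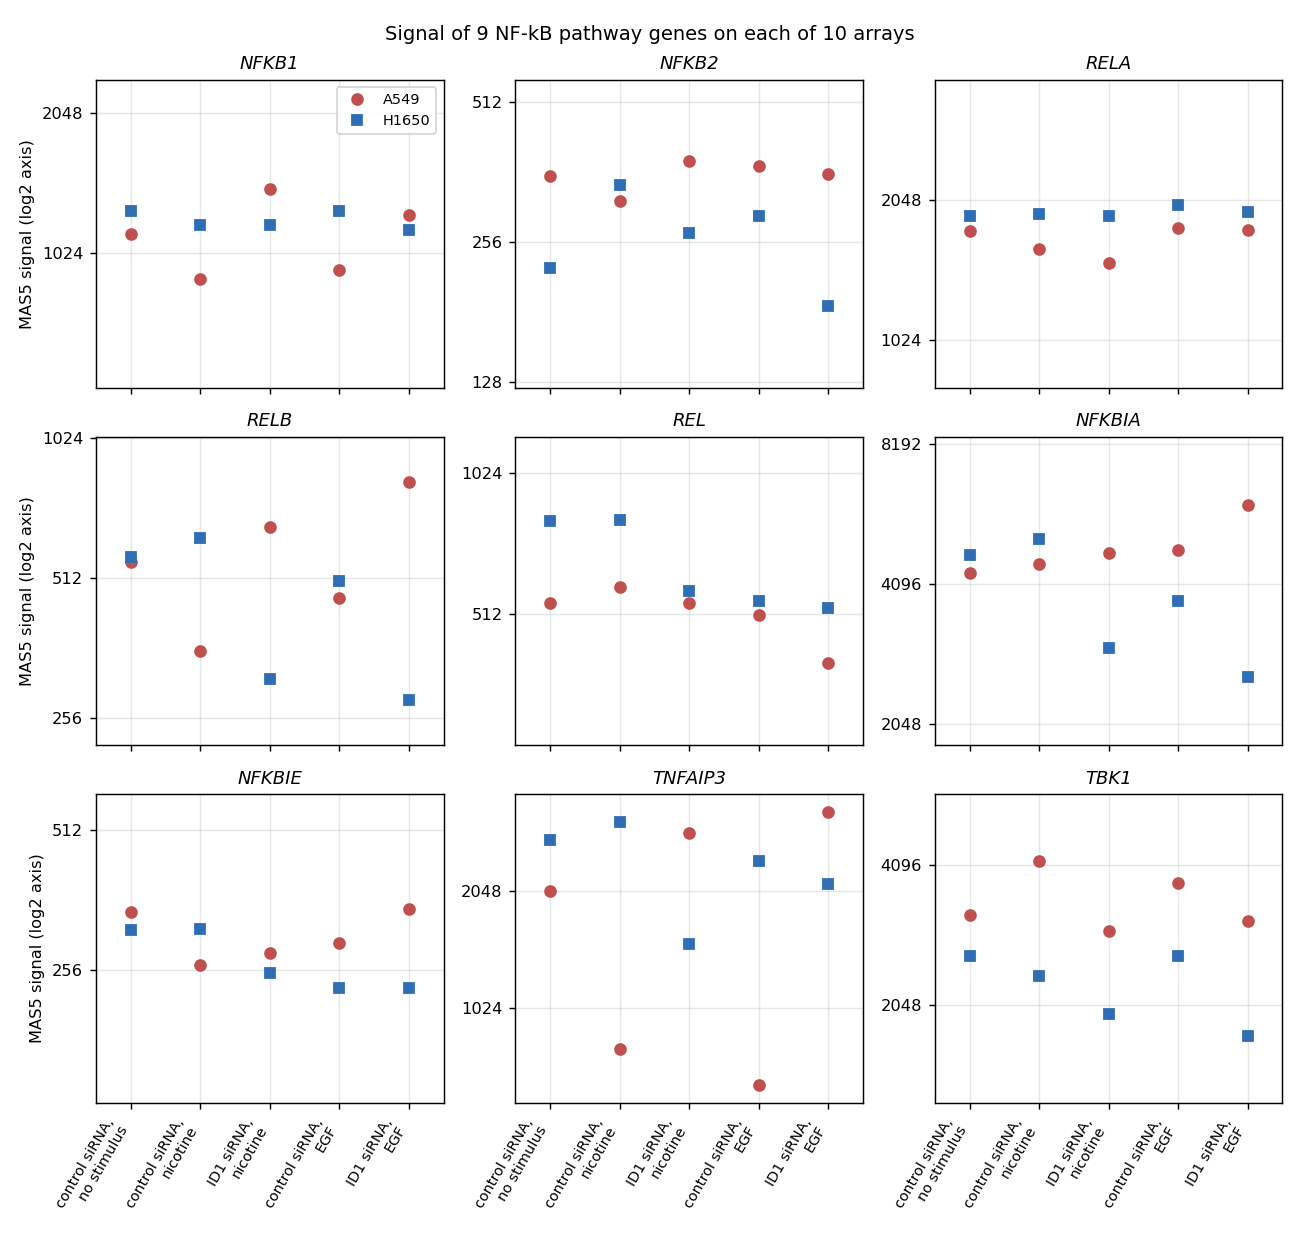
Signal of the 9 measured members on each array, on a log axis, by line and condition, with 1 point per array and no error bar since each condition has 1 array per line. In A549 the TNFAIP3 signals of 803 and 651 under control siRNA lie below the 2892 and 3266 under ID1 siRNA, while in H1650 the order is the opposite.

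The subunits showed the contrast most plainly in RELB. In A549 its signal was 357 with nicotine and 465 with EGF under control siRNA, 658 and 824 under ID1 siRNA, and 554 without a stimulus. In H1650 it was 625 and 505 under control siRNA, 311 and 280 under ID1 siRNA, and 568 without a stimulus. Within each line the control and ID1 siRNA arrays did not overlap, and the unstimulated array lay between them in A549 and among the controls in H1650. The log2 change was 0.85 ± 0.15 in A549 (limma adjusted p = 0.00477) and -0.93 ± 0.15 in H1650 (adjusted p = 0.0069). Both pairs of a line moved alike, by 0.88 and 0.83 in A549 and by -1.01 and -0.85 in H1650. The difference between lines was 1.78 ± 0.22 (adjusted p = 0.00162), a ratio of folds of 3.45.

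NFKB1 encodes a precursor that is processed to a DNA-binding partner of RELA. Its A549 signals were 901 with nicotine and 945 with EGF under control siRNA, 1410 and 1235 under ID1 siRNA, and 1124 without a stimulus. Its H1650 signals were 1175 and 1261 under control siRNA, 1175 and 1147 under ID1 siRNA, and 1262 without a stimulus. ID1 siRNA raised it in A549 by 0.52 ± 0.12 (limma adjusted p = 0.0131), and the H1650 value was -0.07 ± 0.12 (adjusted p = 0.774). The A549 call was lost when either nicotine array was left out, where the change was 0.39 and rested on 1 pair. It was also lost when arrays were centred on their medians, where the change was 0.23 (adjusted p = 0.184). The difference between lines was 0.58 ± 0.16 and missed the threshold (adjusted p = 0.0525).

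NFKB2 encodes the precursor that partners RELB. Its signals ran from 313 to 381 in A549 and from 186 to 340 in H1650. In H1650 the ID1 siRNA arrays read 267 with nicotine and 186 with EGF against 340 and 291 in their controls, with 225 on the unstimulated array, so that the groups did not overlap among stimulated arrays but the unstimulated control lay among the ID1 siRNA values. The log2 change was -0.50 ± 0.20 in H1650 (limma adjusted p = 0.149) and 0.12 ± 0.20 in A549 (adjusted p = 0.716, 95% interval -0.34 to 0.57). A less bright NFKB2 probe set gave 0.84 ± 0.29 in A549 (adjusted p = 0.063) and -0.10 ± 0.29 in H1650 (adjusted p = 0.880), and the dimmest gave 0.13 ± 0.99 and 0.33 ± 0.99.

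RELA, the main transactivating subunit of the canonical dimer, varied least of the members, with an SD of 0.08 on the log2 scale within lines. Its signals lay between 1498 and 1780 in A549 and between 1887 and 1999 in H1650. ID1 siRNA values were -0.06 ± 0.10 in A549 (limma adjusted p = 0.705) and -0.04 ± 0.10 in H1650 (adjusted p = 0.861). The A549 value was -0.35 (adjusted p = 0.0248), and thus past the threshold, when arrays were centred on their medians. A dimmer RELA probe set, above the filter, varied more, from 305 to 489 in A549 and from 304 to 376 in H1650. Its ID1 siRNA pairs gave -0.29 (nicotine) and -0.15 (EGF) in A549, and 0.01 and 0.20 in H1650.

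REL, a subunit best known from lymphocytes, read 584 with nicotine and 509 with EGF under control siRNA in A549, 540 and 402 under ID1 siRNA, and 541 without a stimulus. In H1650 it read 814 and 546 under control siRNA, 571 and 525 under ID1 siRNA, and 807 without a stimulus. The H1650 control with EGF thus lay near the ID1 siRNA arrays rather than near the other controls. The log2 values were -0.23 ± 0.16 in A549 (limma adjusted p = 0.348) and -0.28 ± 0.16 in H1650 (adjusted p = 0.314). With centred arrays the A549 value was -0.52 (adjusted p = 0.0257). The 4 other REL probe sets gave values from -0.04 to 0.55 in A549 and from -0.51 to 0.15 in H1650.

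Among the inhibitors, TNFAIP3 moved most. It encodes a ubiquitin-editing enzyme that is induced by NF-kB and shuts the pathway down. In A549 its signal was 803 with nicotine and 651 with EGF under control siRNA, 2892 and 3266 under ID1 siRNA, and 2050 without a stimulus. In H1650 it was 3076 and 2447 under control siRNA, 1497 and 2128 under ID1 siRNA, and 2771 without a stimulus. The 2 stimulated A549 controls were the lowest of the 10 arrays, and the A549 ID1 siRNA arrays were at the level of the H1650 controls. The unstimulated A549 control, which was also low in ID1, lay closer to the ID1 siRNA arrays than to the stimulated controls, and the part of its ID1 level in this was not tested.

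The log2 change of TNFAIP3 with ID1 siRNA was 2.09 ± 0.19 in A549 (limma adjusted p = 0.00017), with 1.85 in the nicotine pair and 2.33 in the EGF pair. In H1650 it was -0.62 ± 0.19 (adjusted p = 0.0686), with -1.04 in the nicotine pair and -0.20 in the EGF pair. The H1650 value rested on the nicotine pair: it was -0.20 without either nicotine array and -1.04 without either EGF array. Each of these values is that of 1 remaining H1650 pair, so no p-value is given for it. Leaving out any of the 4 stimulated A549 arrays left the value at -0.62 but put its adjusted p between 0.0377 and 0.0387. Over all alternatives, those resting on 1 pair included, 8 put the H1650 fall past the threshold and 9 did not. The difference between lines was 2.71 ± 0.27 (adjusted p = 0.000595), a ratio of folds of 6.53. A further TNFAIP3 probe set gave 2.31 ± 0.19 in A549 (adjusted p = 0.000111), -0.66 ± 0.19 in H1650 (adjusted p = 0.0588) and 2.97 ± 0.27 for the difference (adjusted p = 0.000356).

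NFKBIA encodes IkB alpha, the inhibitor that is degraded on activation and resynthesised by NF-kB. Its A549 signals were 4518 with nicotine and 4853 with EGF under control siRNA, 4776 and 6046 under ID1 siRNA, and 4334 without a stimulus. Its H1650 signals were 5112 and 3762 under control siRNA, 2991 and 2584 under ID1 siRNA, and 4732 without a stimulus. In H1650 both ID1 siRNA arrays lay below all controls, whereas in A549 the groups overlapped. ID1 siRNA lowered it in H1650 by a log2 value of -0.66 ± 0.11 (limma adjusted p = 0.00743), and the A549 value was 0.20 ± 0.11 (adjusted p = 0.219, 95% interval -0.05 to 0.45). Without either H1650 nicotine array the H1650 value was -0.54 and no longer passed. The difference between lines was 0.86 ± 0.15 (adjusted p = 0.0102). A dim NFKBIA probe set, below the signal filter, read 30.2 to 52.5 in A549 controls and 93.4 and 103 under ID1 siRNA, a value of 1.56 ± 0.50 (adjusted p = 0.0518), and gave 0.10 ± 0.50 in H1650 (adjusted p = 0.930).

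NFKBIE, which encodes IkB epsilon, was dimmer and did not pass in either line. Its signals lay between 263 and 346 in A549 and between 235 and 314 in H1650. The log2 values were 0.16 ± 0.20 in A549 (limma adjusted p = 0.607) and -0.16 ± 0.20 in H1650 (adjusted p = 0.696), and the difference was 0.32 ± 0.29 (adjusted p = 0.514).

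TBK1 was lower under ID1 siRNA in all 4 pairs. In A549 it read 4182 with nicotine and 3746 with EGF under control siRNA, 2955 and 3098 under ID1 siRNA, and 3194 without a stimulus. In H1650 it read 2371 and 2609 under control siRNA, 1960 and 1755 under ID1 siRNA, and 2614 without a stimulus. ID1 siRNA arrays lay below every control of their line. The log2 change was -0.39 ± 0.11 in A549 (limma adjusted p = 0.0351) and -0.42 ± 0.11 in H1650 (adjusted p = 0.0422), and the difference was 0.04 ± 0.16 (adjusted p = 0.908) with a 95% interval from -0.32 to 0.40. Leaving out any 1 of the 4 stimulated A549 arrays ended the A549 call, at -0.27 without a nicotine array and -0.50 without an EGF array. Leaving out either H1650 EGF array put the H1650 value at -0.27, that of 1 remaining pair, and it no longer passed.

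**Figure D3:**
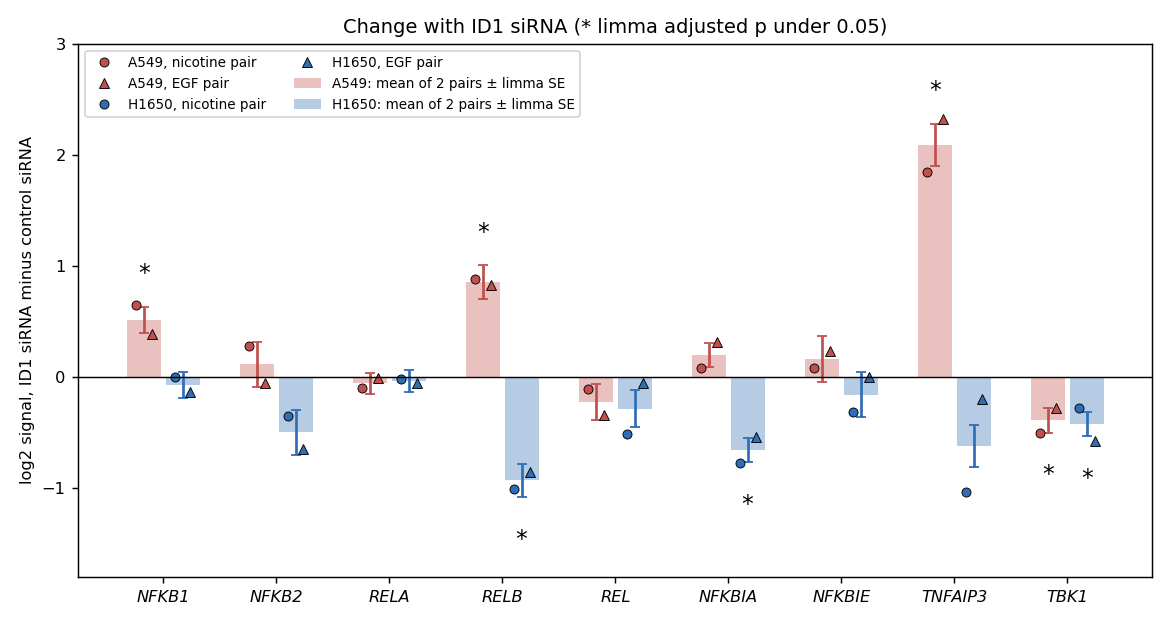
Log2 change with ID1 siRNA for each measured member in A549 and H1650, with the mean of 2 pairs and its limma standard error and 1 point per pair. TNFAIP3 (2.09 and -0.62), RELB (0.85 and -0.93) and NFKBIA (0.20 and -0.66) are separated between the lines, while the TBK1 values of -0.39 and -0.42 lie side by side.

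Counted together, 4 of the 9 members passed in A549, 3 higher and 1 lower, which is 44.4% against 25.3% of all tested genes (13.8% higher and 11.4% lower). The split depended on the scaling: centring each array on its median gave 2 higher and 3 lower, and quantile normalization 3 higher and 0 lower, with TBK1 then at -0.32 (limma adjusted p = 0.0733). The count was 2 without either A549 nicotine array. In H1650, 3 of 9 passed, all lower, or 33.3% against 12.3% of all tested genes (5.64% higher and 6.66% lower). The effect differed between lines for 3 of 9, all higher in A549, against 11.9% of tested genes (6.98% higher and 4.92% lower). The members' median log2 value was 0.16 in A549, where that of all tested genes was 0.05, and -0.42 in H1650, where it was -0.01. By sign alone on the brightest probe sets, 5 members were higher in both A549 pairs (41.2% of tested genes were). All 9 were lower in both H1650 pairs (35.3% of tested genes), although NFKB1 with nicotine and NFKBIE with EGF were nearly equal there. RELA, REL and TBK1 were lower in all 4 pairs, as were 15.3% of tested genes. The mean effect over all 4 pairs, from a limma model of line and condition on all 10 arrays, was called for 0 of 9 members at adjusted p under 0.05, against 1.75% of tested genes (0.679% higher and 1.07% lower). At an unadjusted p under 0.05 it was 1, TBK1, at -0.41 ± 0.11 (adjusted p = 0.0957), beside 21.6% of tested genes. The model of all 10 arrays takes an ID1 siRNA effect common to both lines. Effects that oppose between lines cancel in its mean and widen its error. Standard errors there were 0.48 for TNFAIP3 and 0.35 for RELB, against 0.19 and 0.15 within lines, so few calls could come from such members.

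Between the lines themselves, TBK1 was the member that stood apart most firmly. It was 1.52-fold higher in A549, where its lowest signal was 2955, than in H1650, where its highest was 2614, so that the lines did not overlap. The log2 difference from the model of all 10 arrays was 0.61 ± 0.10 (limma adjusted p = 0.00089). NFKB2 was higher in A549 by 0.47 ± 0.17 (adjusted p = 0.0387), with 340 as its highest H1650 signal overlapping the A549 range from 313. Its other probe sets gave -0.12 and, for the dimmest, which was below the filter, 2.23 ± 0.67 (adjusted p = 0.0182). REL was lower in A549 by a log2 value of -0.33 ± 0.12 (adjusted p = 0.0409), with A549 signals up to 584 overlapping the H1650 range from 525. Its other probe sets gave -0.11 (adjusted p = 0.389), -0.52 (0.018), -0.53 (0.0144) and, for the dimmest, which was below the filter, -0.03 (0.936). The calls of TBK1, NFKB2 and REL, 3 of 9 (33.3%), compare with 63.1% of all tested genes (30.9% higher and 32.2% lower in A549). The NFKB2 and REL calls did not hold when either unstimulated array was left out, at 0.42 and -0.26, nor without either ID1 siRNA array with EGF, at 0.35 and -0.31, and the count was then 1. RELA had -0.20 ± 0.08 (adjusted p = 0.0687), and its A549 signals, at most 1780, all lay below the lowest H1650 signal of 1887. A dimmer RELA probe set, above the filter, overlapped between lines, at 305 to 489 in A549 and 304 to 376 in H1650. Its median was higher in A549 (388 against 328). For TNFAIP3 the value was -0.54 ± 0.43 (adjusted p = 0.293), with the widest spread of the members, an SD of 0.81 within lines.

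Neither stimulus gave a called change in a member. For nicotine against no stimulus and for EGF against no stimulus, limma called 0 of 9 members and 0% of tested genes, and at an unadjusted p under 0.05 it was 0 members in either comparison, with 189 and 747 genes. Both comparisons share the unstimulated array of each line. EGF against nicotine, from the model of the 8 stimulated arrays, gave 0 of 9 in A549 (0.032% of tested genes, 0.024% higher and 0.00799% lower) and 0 of 9 in H1650 (0.216%, 0.0719% higher and 0.144% lower). At an unadjusted p under 0.05 there was 1 member in each line, RELB in A549 at 0.35 ± 0.15 (limma adjusted p = 0.516) and NFKBIA in H1650 at -0.33 ± 0.11 (adjusted p = 0.335), beside 9.57% and 10.7% of tested genes.

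Single arrays nevertheless differed by several-fold for TNFAIP3. On the A549 array labelled unstimulated control it was 2.55-fold above the control with nicotine and 3.15-fold above the control with EGF. In H1650 the stimulated controls were 1.11 times (nicotine) and 0.883 times (EGF) the unstimulated one. The model, which takes a stimulus effect common to both lines, gave -0.60 ± 0.67 for nicotine (limma adjusted p = 1.00) and -0.92 ± 0.67 for EGF (adjusted p = 0.855). ID1 on the same arrays ran the other way in A549, at 2.26 times the unstimulated level with nicotine and 1.85 times with EGF, and was level in H1650. With 1 array per line and condition these single-array folds have no replicate check.

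Other genes of the pathway were taken from a list of 91, of which 86 had a probe set and 81 were tested. The list was chosen with earlier results of these data known, so its counts are descriptions and not an independent test of the pathway. TRAF2, RIPK1, IRAK4, BCL3 and ZC3H12A were not analysed here. With ID1 siRNA in A549, 42 of the 81 were higher and 2 lower (54.3% called against 25.3% of all tested genes), with a median log2 value of 0.48. In H1650, 4 were higher and 10 lower (17.3% against 12.3%), with a median of -0.23. The effect was higher in A549 for 32 of 81 (39.5% against 11.9%). Without either A549 EGF array 27 were called in A549, and without either H1650 nicotine array 9 in H1650. Centring on array medians gave 32 higher and 14 lower in A549.

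The rise in A549 was most frequent at both ends of the pathway. Called shares were 78.6% of ligands and receptors and 87% of target genes, against 25.3% of all tested genes (13.8% higher and 11.4% lower). Among ligands and receptors 10 of 14 were higher and 1 lower, led by TLR3, a receptor for double-stranded RNA, at 3.27 ± 0.22, TLR4, the lipopolysaccharide receptor, at 2.82 ± 0.40, and TNFSF10, a death ligand, at 2.43 ± 0.35. The TNF receptor TNFRSF1A was the 1 lower gene, at -0.63 ± 0.12. TLR3 and TLR4 lay below the signal filter in both stimulated controls (55.9 and 50.8 for TLR3, and for TLR4 14.3 with nicotine) but not on the unstimulated array (169 and 112), so the size of their change is uncertain. TNFRSF1B, another of the 10, read 47.7 and 28.25 in these controls and 16.7 without a stimulus, all below the filter. Under ID1 siRNA it read 72.9 and 111, and its H1650 signals were 318 to 588. These dim genes are included in the called share of 78.6%. Among target genes 20 of 23 were higher, led by the pattern recognition protein PTX3 at 4.14 ± 0.21 and the chemokines CCL5 at 2.65 ± 0.19 and CCL20 at 2.39 ± 0.14. PTX3 signals were 83.5 and 93.8 in the stimulated controls, 1322 and 1833 under ID1 siRNA and 1037 on the array labelled unstimulated control. That array thus lay near the ID1 siRNA arrays for PTX3, and it did so for other genes: of the 42 that were higher, its log2 signal was nearer to the ID1 siRNA mean than to the mean of the stimulated controls in 23, and above both stimulated controls in 34. Both ID1 siRNA arrays were above it in 36 of the 42. The lymphotoxin gene LTB read 1025 there against 252 and 232 in the stimulated controls and 1119 and 785 under ID1 siRNA, whereas CCL5 read 146 against 153 and 165 and then 960 and 1028. The rises are measured against the stimulated controls, and the part of the low ID1 signal on the unstimulated A549 array was not tested. In H1650 the unstimulated array was nearer to the ID1 siRNA mean in 1 of the 10 lower genes. These counts cover only genes called from the same stimulated controls and ID1 siRNA arrays. Choosing genes for a gap between those arrays can by itself place another array past the controls. The counts therefore cannot show a likeness between the unstimulated and the ID1 siRNA arrays. Such counts for the unstimulated arrays were not made over all tested genes. Whether they are particular to this pathway was thus not tested.

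Between these ends fewer genes passed in A549. Called shares were 25% of adaptors and upstream kinases, 12.5% of the IKK complex and TBK1 partners and 25% of other IkB-like proteins. None of these lay above the 25.3% of all tested genes, whereas ubiquitin enzymes and other inhibitors did, at 43.8%. Of 16 adaptors and upstream kinases 4 were higher, among them TRAF1 at 1.23 ± 0.35, TRAF3, which holds the non-canonical branch in check, at 1.12 ± 0.11, and the IL-1 receptor kinase IRAK2 at 1.09 ± 0.12. Of 8 genes of the IKK complex and partners of TBK1, 1 was higher, the autophagy receptor OPTN at 0.74 ± 0.11. Of 4 other IkB-like proteins, 1 was higher, NFKBIZ at 1.16 ± 0.14, with signals of 1801 and 1698 in the stimulated controls, 3517 and 4321 under ID1 siRNA and 2341 without a stimulus. Of 16 ubiquitin enzymes and other inhibitors, 6 were higher and 1 lower, including TNIP1, a partner of the TNFAIP3 protein, at 1.01 ± 0.14, RNF31, a subunit of the linear ubiquitin ligase, at 1.02 ± 0.25, NLRC5 at 2.12 ± 0.21 and, lower, COMMD1 at -0.45 ± 0.10.

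In H1650 the calls fell mostly upstream, in groups of only 16 and 8 tested genes. The 14 pathway calls in H1650 became 5 with the mean of all probe sets and 0 without the intensity trend, so this split depended on the processing. Called shares were 37.5% of adaptors and upstream kinases and 37.5% of the IKK complex and TBK1 partners, against 12.3% of all tested genes. Ligands and receptors (14.3%) and target genes (13%) were near that share. No other IkB-like protein, ubiquitin enzyme or other inhibitor was called. Of the adaptors and upstream kinases 5 of 16 were lower and 1 higher, with the Toll-like receptor adaptor MYD88 at -0.94 ± 0.12, TRAF5 at -0.95 ± 0.25, the TNF receptor adaptor TRADD at -0.63 ± 0.14 and, higher, TRAF3 at 0.68 ± 0.11. Of the IKK complex and partners of TBK1, 3 of 8 were lower, namely OPTN at -0.42 ± 0.11 and the TBK1-binding adaptors AZI2 at -0.59 ± 0.10 and TANK at -0.34 ± 0.09. Their limma adjusted p was 0.0422 for OPTN, 0.00782 for AZI2 and 0.0465 for TANK. CHUK, IKBKB, IKBKG and IKBKE were not called. Both receptors that passed were higher, IL1R1 at 0.49 ± 0.13 and LTBR, a receptor of the non-canonical branch, at 0.52 ± 0.11. Of the target genes, CCL5 was lower at -1.34 ± 0.19 and LIF at -0.78 ± 0.11, and CCL2 higher at 1.14 ± 0.28. TRAF5 and CCL2 were on average below the filter in the stimulated group where they were lower. The tested difference between lines was 3.98 for CCL5, 3.75 for PTX3, 3.15 for TLR3, 1.59 for NFKBIZ, 1.29 for TNIP1, 1.16 for OPTN and 0.91 for MYD88, each called by limma.

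**Figure D4:**
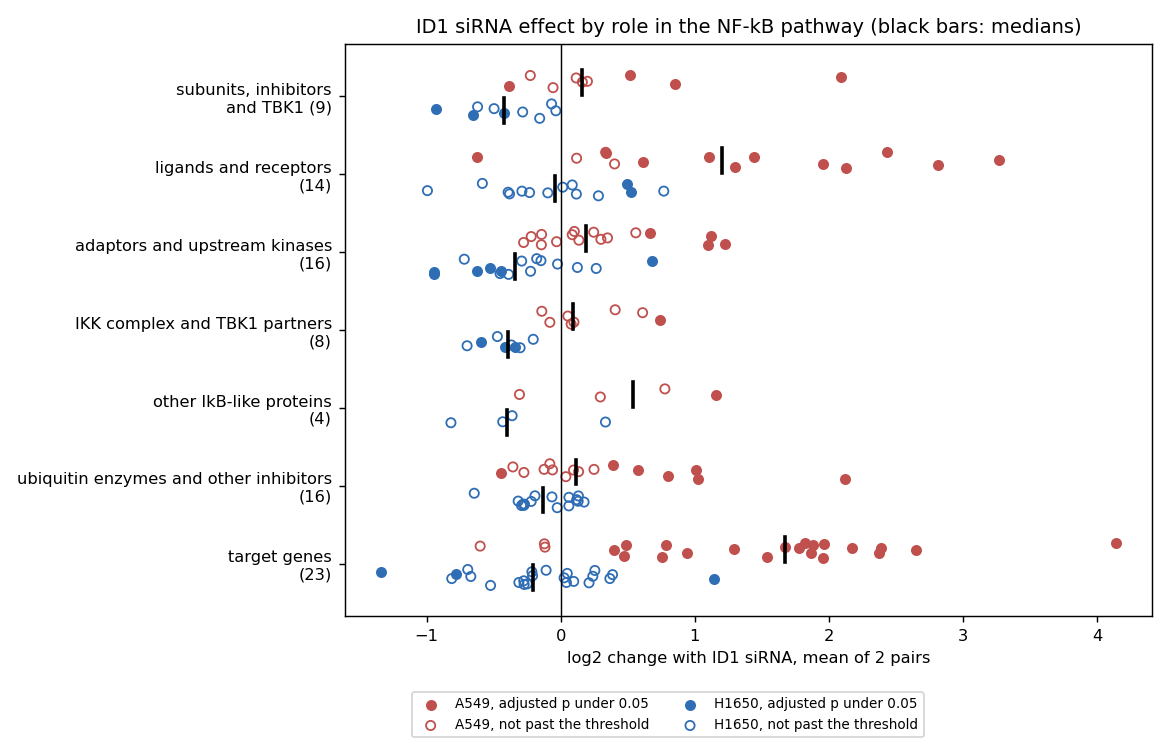
Log2 change with ID1 siRNA for the 9 members and the 81 other tested pathway genes by role, with 1 point per gene, filled where the limma adjusted p is under 0.05, and a bar at each median. Target genes have medians of 1.67 in A549 and -0.21 in H1650, and the members 0.16 and -0.42.

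The genes most like the 4 most variable members were found from the distance between log2 profiles centred within each line, over all 10 arrays. The distance is the root mean square difference in log2 units. For TNFAIP3 these were DLL1 at 0.20, SLC2A10 at 0.20 and SBSN at 0.20, although SLC2A10 read only 1.04 to 4.90 in A549. In the stimulated A549 controls DLL1 read 25.5 and 17.8 and SBSN 44.4 and 40.0, also below the filter signal of 66.7. The A549 part of these likenesses thus rests on dim signals. RELB was nearest to the restriction factor TRIM5 at 0.13, with EFNB1 and BACE2 at 0.14. TRIM5 rose from 1232 and 1350 under control siRNA to 2206 and 2437 under ID1 siRNA in A549, and in H1650 read 1391 and 1255 against 860 and 822, the same opposition as RELB. NFKBIA was nearest to NRSN2, CHMP7 and WLS, each at 0.07. REL was nearest to MRC2 at 0.09 (signals of 1355 to 1663 in A549 and 527 to 810 in H1650), with ECH1 and MITD1 at 0.10. These likenesses are descriptions over arrays that share their lines and conditions.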

How the data were processed

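Transcript levels of 10 arrays, 1 per line and condition, were analysed. The deposited values are linear signal intensities, 1 per probe set, which the authors made with GCOS 1.4 and MAS5 per the submitters' processing notes, and whose trimmed mean (2% cut at each end) is 500 on every array. The labels mention log2 values, but the deposited values are linear, so log2 was taken here. All columns were mapped to a sample. Of 54675 probe sets, 62 controls, 1801 with several symbols and those without a symbol were set aside, and 41037 of the 41091 with 1 symbol were matched by Entrez identifier.

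Each gene was represented by its brightest probe set, and 12514 genes with a mean log2 signal of at least 6.06 (signal 66.7) were tested with limma 3.58.1 in R 4.3.3, with an intensity trend and Benjamini-Hochberg adjustment over all of them. A model of line and condition on 10 arrays had 4 residual degrees of freedom. A model of the 8 stimulated arrays had the 4 pairs of line and stimulus as blocks, an ID1 siRNA term per line and 2 residual degrees of freedom. The labels carry no replicate numbers. Alternatives were other scalings, filters and probe sets, 16 added to the signal, no trend, no pair block and each array left out. The scripts were tested on simulated data. Array number limits the precision.

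The members and the pathway list were chosen with earlier results of these data known. All members are named. Of the pathway list, up to 3 genes per role and direction with the largest called change are named for each comparison, the text giving a selection of them, and up to 3 likest genes for the 4 members with the largest spread. The kappaB consensus was added after the looser pattern had been searched. Promoter sequences are from RefSeq.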

Additional observations from a re-analysis of the deposited data

Results flagged for a closer look

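For 3 members the effect of ID1 siRNA differed between the lines by a limma test of the difference itself, with n = 2 pairs per line. TNFAIP3 was higher in A549 than in H1650 by 2.71 ± 0.27 on the log2 scale (adjusted p = 0.000595). For RELB the difference was 1.78 ± 0.22 (adjusted p = 0.00162), with a rise in both A549 pairs and a fall in both H1650 pairs. For NFKBIA it was 0.86 ± 0.15 (adjusted p = 0.0102), and only the fall in H1650 passed on its own. ID1 also fell further in H1650, with a difference of 1.08 ± 0.15 (adjusted p = 0.00372). The part of the ID1 level in these differences was not tested.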

How the results depend on the processing

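The A549 rise of TNFAIP3 kept its call in 17 of 17 alternatives, the A549 rise of RELB in 16 of 16, the RELB difference between lines in 16 of 16 and the line difference of TBK1 in 19 of 19. Other calls held in fewer: TNFAIP3 difference 16 of 17 (adjusted p = 0.0535 without the intensity trend), RELB in H1650 15 of 16 (0.0731 without the trend), NFKBIA difference 14 of 17, NFKBIA in H1650 12 of 17, NFKB1 in A549 12 of 16, TBK1 in H1650 11 of 16 and in A549 8 of 16, REL between lines 10 of 23 and NFKB2 9 of 20. Directions turned with other probe sets for NFKB2 between lines (-0.12) and NFKBIA in H1650 (0.10). The alternatives are not independent. For ID1 siRNA within a line, leaving out an array of the other line could not change the value. TNFAIP3 in A549 thus stayed at 2.09. Leaving out either array of a pair gave the same value, as did either line's array of a condition when lines were compared. With an array of the tested line left out, its effect rested on 1 pair. The spread then came from the other line and from genes of similar signal.

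Members called between lines, 3 as reported, were 1 without a filter on low signal, 1 without both unstimulated arrays and 1 to 2 with single arrays left out. For ID1 siRNA in A549, 4 became 2 without the intensity trend and 2 to 4 with single arrays left out. In H1650, 3 became 1 with the mean of all probe sets, 0 without the trend and 2 to 4 with single arrays left out. The H1650 count was 4, all lower, with array-median centring and with the signal filter at the 75th percentile. The difference gave 1 without the trend and 3 to 4 with single arrays left out, and the mean over 4 pairs gave 1 with centring. Pathway genes called in A549, 44 as reported, were 28 without the trend and 27 to 49 with single arrays left out. In H1650, 14 became 9 without a filter, 5 with the mean of probe sets, 0 without the trend and 9 to 16. The difference, 32 as reported, was 8 without the trend and 27 to 36. For these counts the cause was not tested. Among member results that missed the threshold, 100 alternatives turned the sign and 17 passed it.

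No paired analysis was possible by replicate number because the labels carry none. Pairing followed line and stimulus, and without that block the NFKBIA difference lost its call. Signal near background limits the dim probe sets, and 1 array per condition limits every stimulus comparison.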
